A study of Mus musculus with 6 samples.

Results

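TAF4A binding was examined at noncoding genes in mouse muscle stem cells (MuSCs), the stem cells of skeletal muscle. The deposited peak table lists a gene for most of its 1131 peaks, and the rows whose listed gene is not protein-coding were taken, with their biotype as the table gives it. This gave 77 peaks at 66 noncoding genes of 12 biotypes, beside 930 peaks listed for 833 protein-coding genes and 122 peaks with no gene. A further 2 peaks listed for 1 noncoding gene were left out. The 77 peaks comprised 44 at 37 long noncoding genes, 9 at 6 antisense genes, 14 at 13 small RNA genes and 10 at 10 pseudogenes. The series held 3 CUT&RUN libraries made with an antibody against TAF4A and 3 made with mouse IgG. All 6 came from activated, proliferating MuSCs of wild type C57BL/6 mice that were kept in culture, and no group carried a mutation or a treatment. In CUT&RUN, a nuclease tethered to the antibody releases the DNA around the bound protein, so a count is a number of sequenced fragments at a peak and says nothing of RNA levels. The 3 TAF4A libraries were analysed. The 3 IgG libraries were not used here, and no enrichment over background is given. The files hold no expression values, and the labelled cell type was not checked.

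TAF4A is a subunit of TFIID, the general transcription factor that recognises core promoters and helps RNA polymerase II to assemble there. Many noncoding genes are transcribed by the same polymerase from promoters like those of coding genes. Among them are long noncoding RNAs, primary transcripts of microRNAs (miRNAs), and the hosts of small nucleolar RNAs (snoRNAs), which are cut out of introns and guide the modification of ribosomal RNA. Antisense genes run against a coding gene, and processed pseudogenes are copies of messenger RNAs that were inserted back into the genome.

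The sequences below are those at which the noncoding peaks are easiest to read. The 4 peaks shown lie at the starts of the snoRNA hosts Snhg8, Snhg5 and 2410006H16Rik and of Terc, the RNA that carries the template of telomerase. They were read from GRCm38 (mm10) on the strand of the gene, 5′ to 3′. The Snhg8 stretch is the central 300 bases of its peak at chr3:123508306-123508605, and the Snhg5 stretch is the central 300 bases of its peak at chr9:88522877-88523176, both on the minus strand. The peak of 2410006H16Rik is whole at chr11:62602667-62602894 on the plus strand, as is that of Terc at chr3:96414853-96414952 on the minus strand. Capitals mark, on either strand, CCAATCA (bound by NF-Y), GGGCGGG (bound by SP1) and TATAAA (the TATA box). The peaks of the other listed snoRNA hosts, Snhg17 and Snhg6, are not shown and held none of these motifs.
Snhg8: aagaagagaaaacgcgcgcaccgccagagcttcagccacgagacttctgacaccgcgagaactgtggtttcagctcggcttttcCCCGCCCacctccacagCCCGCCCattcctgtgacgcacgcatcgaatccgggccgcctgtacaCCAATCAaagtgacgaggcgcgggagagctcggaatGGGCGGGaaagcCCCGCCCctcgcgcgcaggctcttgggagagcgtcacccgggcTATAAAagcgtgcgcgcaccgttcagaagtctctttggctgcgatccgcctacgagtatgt
Snhg5: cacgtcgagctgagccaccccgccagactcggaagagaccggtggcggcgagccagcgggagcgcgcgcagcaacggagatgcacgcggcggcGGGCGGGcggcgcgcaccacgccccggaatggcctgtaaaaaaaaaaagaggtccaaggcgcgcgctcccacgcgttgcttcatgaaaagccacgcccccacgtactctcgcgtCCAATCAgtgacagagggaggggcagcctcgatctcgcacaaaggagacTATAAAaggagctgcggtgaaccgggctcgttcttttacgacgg
2410006H16Rik: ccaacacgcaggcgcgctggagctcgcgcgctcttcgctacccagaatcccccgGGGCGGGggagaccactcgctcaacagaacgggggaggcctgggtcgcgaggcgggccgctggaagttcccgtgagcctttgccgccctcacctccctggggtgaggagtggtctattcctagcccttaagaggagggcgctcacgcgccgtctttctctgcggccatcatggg
Terc: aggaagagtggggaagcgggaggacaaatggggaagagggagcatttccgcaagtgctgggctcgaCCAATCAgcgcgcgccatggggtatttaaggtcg
Snhg8 and Snhg5 were the only members whose peaks held both CCAATCA and TATAAA. Counted from the first base of CCAATCA to the first base of TATAAA, the motifs lay 91 bases apart at Snhg8 and 49 at Snhg5. Both motifs were held by 30 of the 930 protein-coding peaks (3.23%) and by 32 of all 1131 peaks (2.83%).

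The miRNAs below belong to members or are held by them, and are shown because their seeds (bases 2 to 8, in capitals) decide which messenger RNAs they pair with. The sequences are those of RefSeq on GRCm38.p6, where all 8 miRNA genes looked for were found. miR-21a-5p and miR-21c come from the listed genes Mir21a and Mir21c, miR-1938 comes from Mir1938, and miR-199a-5p and miR-214-3p come from Dnm3os, a noncoding gene on the opposite strand of Dnm3. miR-100-5p and miR-125b-5p lie in the gene Gm49317.
miR-21a-5p: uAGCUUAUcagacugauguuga
miR-21c: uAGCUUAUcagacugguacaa
miR-1938: cGGUGGGAcuuguaguucgguc
miR-199a-5p: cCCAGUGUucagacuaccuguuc
miR-214-3p: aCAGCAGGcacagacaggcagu
miR-100-5p: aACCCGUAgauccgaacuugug
miR-125b-5p: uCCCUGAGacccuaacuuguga
miR-21a-5p and miR-21c share the seed AGCUUAU, and the other seeds shown differ from it and from each other.

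Counts over peaks were low. TAF4A replicates 1, 2 and 3 held 47723, 24826 and 32128 counts over all peaks, of which 3233, 1442 and 2065 fell in noncoding peaks (6.77, 5.81 and 6.43%). The median noncoding peak had 23, 13 and 19 counts. At least 10 counts in each library were reached by 47 of the 77 noncoding peaks (61.0%) and by 637 of the protein-coding peaks (68.5%). A normalised count below is a count scaled by the relative library size, which was computed from the counts over peaks alone and not from all reads. It was 1.32, 0.724 and 0.957 in replicates 1, 2 and 3. Intervals are 95% Wilson intervals and cover counting error only.

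The way in which genes were listed set which peaks became noncoding ones. In GENCODE M21, an annotation of the same build, no protein-coding gene started within 10000 bases of the centre of any of the 77 noncoding peaks. The nearest one lay 10286.5 bases away, and the median was 35557.5 bases. Conversely, 929 of the 930 protein-coding peaks had such a start within 10000 bases, also where a noncoding gene started closer. A noncoding gene start was nearer than the listed gene at 97 protein-coding peaks, and for 73 of these it lay within 1000 bases. The noncoding members are therefore peaks away from protein-coding gene starts, and promoters that a noncoding gene shares with a coding neighbour are mostly counted under the neighbour.

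Noncoding peaks lay farther from the start of their listed gene than protein-coding peaks did. The distance from the peak centre had a median of 2624 bases (quartiles 144 and 6427) at noncoding genes and of 125.5 bases at protein-coding genes. It was within 1000 bases for 31 of 77 noncoding peaks (40.3%, interval 30.0 to 51.4) and for 764 of 930 protein-coding peaks (82.2%, interval 79.6 to 84.5). The listing rule above enters this contrast, since a noncoding start beside a protein-coding gene start is mostly counted as protein-coding. The intervals do not cover this. Both sets peaked on the same side of the start: 22 of the 31 noncoding peaks (71.0%) and 73.2% of the protein-coding ones near a start had their centre upstream of it, with median positions of -55 and -67.75 bases. Because the peaks were unified over libraries, these shares have no replicates.

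**Figure D1:**
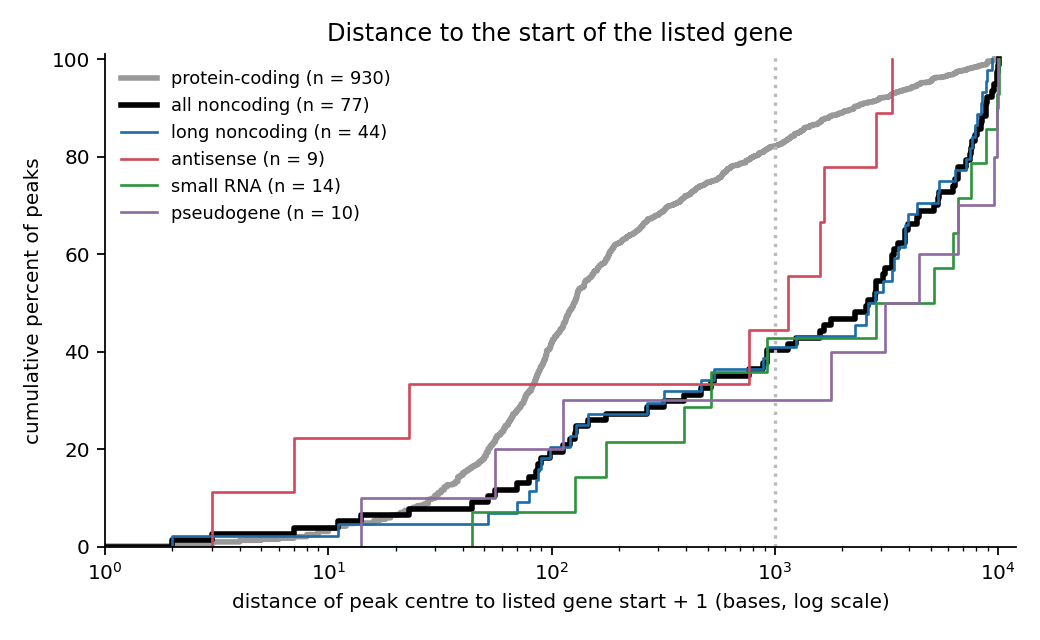
Cumulative percent of peaks against the distance from the peak centre to the start of the listed gene plus 1 (bases, log axis), for protein-coding peaks, all noncoding peaks and the 4 noncoding groups, with a dotted line at 1000 bases. The noncoding curve passes 1000 bases at 40.3% and the protein-coding curve at 82.2%.

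The groups could not be told apart in this respect at their numbers of peaks. Within 1000 bases of the start lay 18 of 44 long noncoding peaks (40.9%, interval 27.7 to 55.6), 4 of 9 antisense peaks (44.4%, interval 18.9 to 73.3), 6 of 14 small RNA peaks (42.9%, interval 21.4 to 67.4) and 3 of 10 pseudogene peaks (30.0%, interval 10.8 to 60.3). All 4 intervals overlapped. Among the long noncoding genes, processed transcripts, a biotype that holds most of the snoRNA hosts found here, had 7 of 9 peaks near the start (77.8%, interval 45.3 to 93.7), against 9 of 26 for lincRNAs (34.6%, interval 19.4 to 53.8).

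The listed gene was not always the nearest transcript. Counting every transcript start in M21 in place of the listed gene start, 43 of the 77 noncoding peaks (55.8%) lay within 1000 bases of a start, and 34 lay farther from all of them. A protein-coding transcript started within 1000 bases of 12 noncoding peaks (15.6%, interval 9.15 to 25.3), against 829 of the protein-coding peaks (89.1%). At all 12 the start was that of a transcript inside a gene whose own start lay more than 10000 bases away. They included those of Lrif1 (peak listed for Gm38253), Pkig (Gm16316), Rgs3 (Gm11210), Rhebl1 (5730414N17Rik), Dusp1 (AC122252.2), Phactr4 (Gm25707), Por (Gm16061), Vmp1 (Mir21a), Plec (Gm25720), and Ifrd1 (Gm7008 and Mir1938). The closest were the peaks 2 bases from a start of Por, which encodes the cytochrome P450 reductase, and 2.5 bases from a start of Vmp1. By the position of the centre, 40 of the noncoding peaks (51.9%) were intergenic, 17 (22.1%) lay in an intron of a protein-coding gene, 11 (14.3%) in an intron and 5 in an exon of the listed gene, 2 in an exon of a protein-coding gene, and 2 inside another noncoding gene.

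Hosts of small RNAs mostly had their peak at the start. Of the 66 genes, 7 hold an annotated snoRNA or miRNA on their own strand, and 6 of their 7 peaks lay within 1000 bases of the start, at a median distance of 78 bases over the 7. The snoRNA hosts were Snhg8, with Snora24 inside the gene, Snhg5, with Snord50a and Snord50b, Snhg6, with Snord87, 2410006H16Rik, with Snord49a, Snord49b and Snord65, and Snhg17, with the predicted snoRNA genes Gm23925, Gm24411 and Gm26003. The miRNA hosts were Dnm3os, with Mir199a-2 and Mir214, and Gm49317, with Mir100, Mirlet7a-2 and Mir125b-1.

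Snhg8 had the highest count of the snoRNA hosts, with 166, 55 and 80 counts in replicates 1, 2 and 3 and a normalised mean of 95.1 ± 26.9 (SD, n = 3). Its peak was centred 51 bases from the start. Snhg5 had 132, 30 and 58 counts, or 67.4 ± 29.9 (SD, n = 3). Its centre lay 535 bases downstream of the listed start but 97.5 bases upstream of the M21 start of this gene, whose listed coordinates differ from those of M21. 2410006H16Rik had 57, 30 and 46 counts, which after scaling came to 44.2 ± 3.43 (SD, n = 3), the smallest spread among the hosts. Snhg17 and Snhg6 were weaker. At Snhg17 the counts were 13, 28 and 17, so that the library with the fewest counts over all peaks had the most here, and the normalised mean was 22.1 ± 14.9 (SD, n = 3). At Snhg6 they were 12, 10 and 22, or 15.3 ± 7.06 (SD, n = 3). All 77 noncoding peaks had quartiles of 13.0 and 37.1 normalised counts, so that Snhg8, Snhg5 and 2410006H16Rik were above the upper quartile and Snhg17 and Snhg6 between the quartiles.

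The starts of snoRNA hosts often carry a run of pyrimidines that begins with C at the start of the RNA, a feature of genes whose messenger RNAs encode ribosomal proteins and translation factors. The windows below hold 15 bases to either side of the annotated start, on the gene's strand in GRCm38, with such a run (C followed by at least 5 pyrimidines, its C within 5 bases of the start) in capitals. They are chr3:123508389-123508419, chr1:9944103-9944133, chr11:62602862-62602892, chr9:88522914-88522944 and chr2:158361565-158361595.
Snhg8 start: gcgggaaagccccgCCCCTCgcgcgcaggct
Snhg6 start: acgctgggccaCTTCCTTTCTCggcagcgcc
2410006H16Rik start: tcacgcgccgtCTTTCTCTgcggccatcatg
Snhg5 start: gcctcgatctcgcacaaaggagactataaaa
Snhg17 start: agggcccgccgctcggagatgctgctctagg
The run was found at 3 of these 5 hosts and not at Snhg5 or Snhg17, and at 5 of the 16 noncoding snoRNA hosts of M21 with a peak at a start, listed or not (31.3%). The annotated start need not be the first base of the RNA: at Snhg8 the run overlaps a GGGCGGG match and, like the annotated start of Snhg5, lies upstream of TATAAA. The run was found at 1 of 24 other noncoding genes with a peak near the start, at 77 of 724 protein-coding genes with such a peak (10.6%), and at 10.4% of all protein-coding and 9.86% of all long noncoding genes of M21.

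The miRNA hosts had lower counts than Snhg8 and Snhg5. Dnm3os had 24, 8 and 24 counts (18.1 ± 7.01 normalised, SD, n = 3) in a peak centred 2.5 bases from its start. In Gm49317 the peak had 11, 4 and 16 counts and lay inside the gene, 5445 bases from the start of this gene and 5407 bases from the RefSeq start of Mir100hg.

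Among the genes that are themselves small RNAs, Mir21a stood out. Its peak, 581 bases wide and the widest of the noncoding peaks, had 240, 67 and 168 counts and a normalised mean of 150.0 ± 49.9 (SD, n = 3). It lay in an intron of Vmp1, 2839 bases upstream of the miR-21a hairpin. The primary transcript of this miRNA is known to start within Vmp1, and the M21 start nearest to the peak, 2.5 bases away, is that of a Vmp1 transcript. The central 300 bases at chr11:86586847-86587146, on the minus strand, are shown because this is the strongest peak of a small RNA gene, and the capitals mark CAGCTG, the E-box preferred by MYOD and related factors.
Mir21a: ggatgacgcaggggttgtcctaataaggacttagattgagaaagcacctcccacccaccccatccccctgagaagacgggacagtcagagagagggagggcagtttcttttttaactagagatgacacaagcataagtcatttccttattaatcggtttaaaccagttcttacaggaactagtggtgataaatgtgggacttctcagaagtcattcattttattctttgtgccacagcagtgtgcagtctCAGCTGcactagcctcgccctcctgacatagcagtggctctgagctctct
None of the motifs marked in the snoRNA host peaks was found in this stretch. The whole peak also held CCAAT, a short form of the NF-Y motif, and TGANTCA, which AP-1 factors bind.

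Mir1938 came next, with 91, 39 and 88 counts (71.6 ± 19.2, SD, n = 3), and its peak lay 518 bases from the hairpin. The same short region on chromosome 12 held the peak of the antisense gene Gm7008, with 36, 28 and 26 counts, and a transcript start of Ifrd1 lay 139.5 and 226.5 bases from the 2 peaks. Mir21c, which shares the miR-21a seed, had 29, 7 and 7 counts in a peak 5191 bases from it. The predicted miRNA genes Gm25707 and Gm23802 had 27, 37 and 39, and 15, 1 and 3 counts. At Gm25707 the peak lay 36 bases from a start of Phactr4, a regulator of actin, and 10062 bases from the listed gene, the largest distance among the members.

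All 3 peaks of snoRNA genes lay within 1000 bases of the listed start. Snord104 had 43, 22 and 47 counts (37.4 ± 10.2, SD, n = 3), and the nearest RefSeq start, that of the long noncoding RNA Gm36220, lay 48.5 bases from the centre. Rnu3b1, a gene of the U3 snoRNA that acts in the cleavage of ribosomal RNA precursors, had 37, 13 and 4 counts in a peak in an intron of Tex14. Gm25406, in an intron of Lclat1, had 21, 3 and 16 counts. These 2 peaks were thin in at least 1 library each, whereas Snord104 reached 22 counts in every library.

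The remaining small RNA genes had low counts. Terc had 12, 7 and 11 counts (10.1 ± 1.25, SD, n = 3) in a peak of 100 bases centred 43 bases upstream of its start, and its CCAATCA is shown above. The small nuclear RNA genes are Gm23287, with 26, 7 and 17 counts at 175 bases from the start, and Gm25720, with a pair of peaks of 22, 10 and 15, and 18, 11 and 14 counts inside Plec, the gene of the cytolinker plectin. The misc_RNA gene Gm25888 had 13, 6 and 8 counts, and the sRNA gene Gm27702 had 18, 11 and 19 counts in the Malat1 region described next. Apart from Terc and Gm23287, these peaks lay more than 1000 bases from the listed gene.

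The largest cluster of noncoding peaks lay at Malat1 and Neat1 on chromosome 19. Both genes make abundant nuclear RNAs, and Neat1 RNA is the scaffold of paraspeckles, a kind of nuclear body. All 9 peaks of this region were noncoding ones and spanned 46081 bases. They were 11.7% of the noncoding peaks and held 27.7, 22.0 and 20.8% of the noncoding counts in replicates 1, 2 and 3.

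The peak at the start of Frmd8os, an antisense gene that begins 145 bases from the start of Neat1, had the highest mean of all noncoding peaks. It had 322, 69 and 132 counts. After scaling the libraries still differed, at 244, 95.3 and 138 normalised counts, with a mean of 159 ± 76.6 (SD, n = 3), and replicate 1 was above both others. Neat1 itself is listed for no peak, although its start lay 151 bases from the centre of this one.

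Frmd8os had 3 further peaks inside the gene, at 766, 1147 and 2841 bases from the start, with 25, 6 and 10, 149, 64 and 65, and 144, 48 and 49 counts. The last of them lay 44.5 bases from another Frmd8os transcript start.

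Malat1 had 4 peaks, all upstream of its start. The nearest, 84 bases away, had 88, 52 and 55 counts and a normalised mean of 65.3 ± 7.28 (SD, n = 3), with replicate 2 highest after scaling. The others lay 923, 7613 and 8028 bases upstream, with 69, 31 and 39, 16, 9 and 20, and 66, 27 and 41 counts. The sRNA gene Gm27702 is listed for a peak still farther upstream, 15412 bases from the Malat1 start. Thus 2 of the 4 Malat1 peaks were within 1000 bases of its start, and the other 2 had no M21 transcript start of any gene within that distance.

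**Figure D2:**
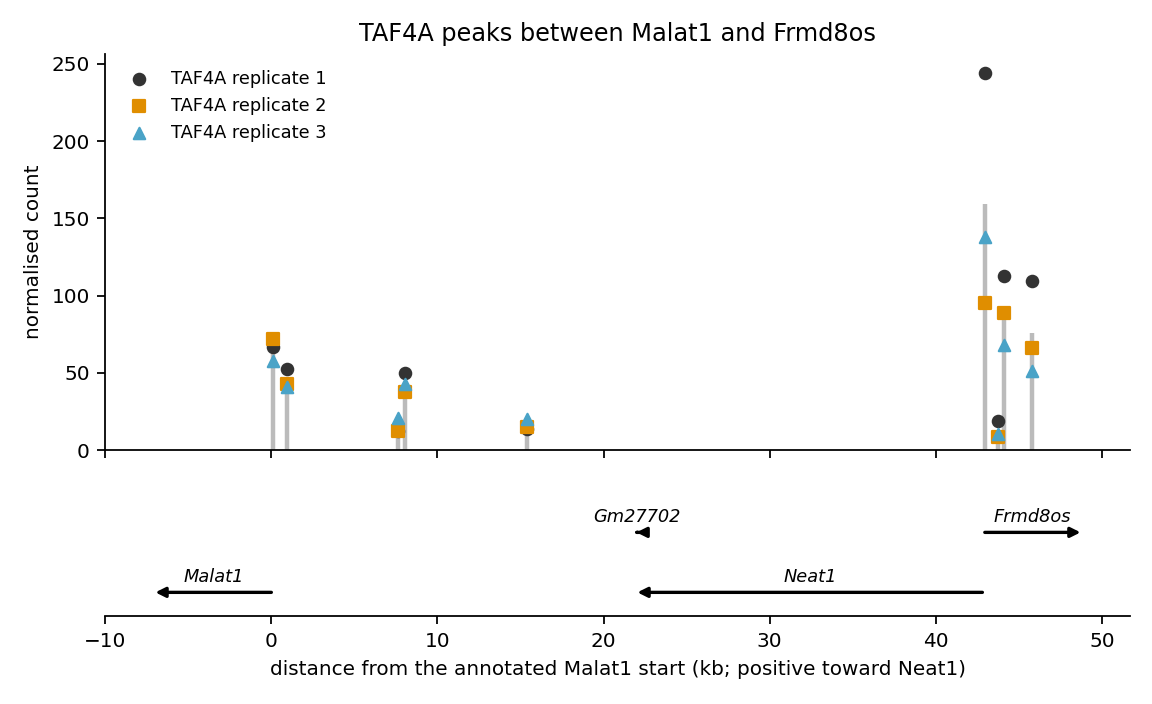
Normalised counts of the 9 peaks around Malat1 and Neat1 in the 3 TAF4A libraries (points) with their mean (grey bars), against the distance from the Malat1 start (kb), above arrows for the genes in their direction of transcription. The peak at the Frmd8os and Neat1 starts is the highest, with a mean of 159, and no Malat1 peak has a mean above 65.3.

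Other genes with more than 1 peak were Nctc1, 1700025L06Rik, 2610105M22Rik and AC166654.1. Nctc1 is a noncoding gene in the Igf2 and H19 region, where enhancers of mesodermal tissues are known to lie. Its peaks were in an intron, 7502 and 8363 bases from the start, with 77, 30 and 25, and 25, 23 and 18 counts. The stronger peak, at chr7:142550953-142551236 on the minus strand and 25444 bases from the H19 start, is shown whole because it held the motif CAGCTG more than once, in capitals.
Nctc1: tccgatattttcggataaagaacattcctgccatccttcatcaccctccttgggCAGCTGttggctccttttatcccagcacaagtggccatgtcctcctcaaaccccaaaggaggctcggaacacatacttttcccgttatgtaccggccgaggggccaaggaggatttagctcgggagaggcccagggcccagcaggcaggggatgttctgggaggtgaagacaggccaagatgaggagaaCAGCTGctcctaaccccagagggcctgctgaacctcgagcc
The normalised mean of this peak was 42.0 ± 16.1 (SD, n = 3), with replicate 1 highest.

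1700025L06Rik is the noncoding gene nearest to 2 peaks that lay 26217 and 34961 bases from the start of Myod1, the gene of the master regulator of the muscle lineage. The peak nearer to 1700025L06Rik, 884 bases from it, had 23, 5 and 5 counts, and the other had 15, 2 and 16. The peaks of 2610105M22Rik had 22, 16 and 13, and 15, 9 and 14 counts, and the RefSeq start nearest to 1 of them was that of Cdon, a receptor that promotes myogenic differentiation, 51210.5 bases away. AC166654.1 had 18, 14 and 26 counts at 120 bases from the start and 42, 17 and 26 counts at 1242 bases. 1700025L06Rik and AC166654.1 thus had 1 peak each within 1000 bases of the listed start, and 2610105M22Rik had none.

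Further long noncoding genes had lone peaks. Trp53cor1 (lincRNA-p21), which lies beside the cell cycle inhibitor gene Cdkn1a, had 9, 8 and 3 counts in a peak 144 bases from its start. At 1810026B05Rik, named Chaserr in RefSeq and a neighbour of Chd2, there were 91, 46 and 33 counts 266 bases from the start. At 5430416N02Rik 62, 45 and 61 counts were found 86 bases from the start. The last 2 were among the best covered long noncoding peaks, whereas Trp53cor1 was among the thinnest.

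The other antisense genes were Gm16316, with 37, 16 and 34 counts beside a start of Pkig, an inhibitor of protein kinase A, Gm26626, with 19, 14 and 12 counts inside Runx1, and Gm14224, with 15, 5 and 8 counts. Gm26626 lies in an intron of a gene for a transcription factor of blood and muscle cells, and its peak was 3354 bases from the listed start. Apart from Frmd8os, the antisense genes thus had counts within the range of the long noncoding peaks.

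The pseudogenes with the highest means were Gm29950, with 78, 27 and 42 counts (46.8 ± 11.2, SD, n = 3), Gm13655, with 23, 20 and 19 counts, and Gm21769, with 16, 10 and 32 counts. The first 2 peaks were intergenic and 6609 and 9912 bases from the pseudogene. Gm16061, with 25, 14 and 20 counts, lay 9985 bases from the pseudogene and 2 bases from a start of Por. Only 3 of the 10 pseudogene peaks were within 1000 bases of the listed start, those of Gm11471, Gm21769 and 2610005L07Rik. Reads that map to several places had been removed by the authors, which lowers counts at near-identical copies.

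**Figure D3:**
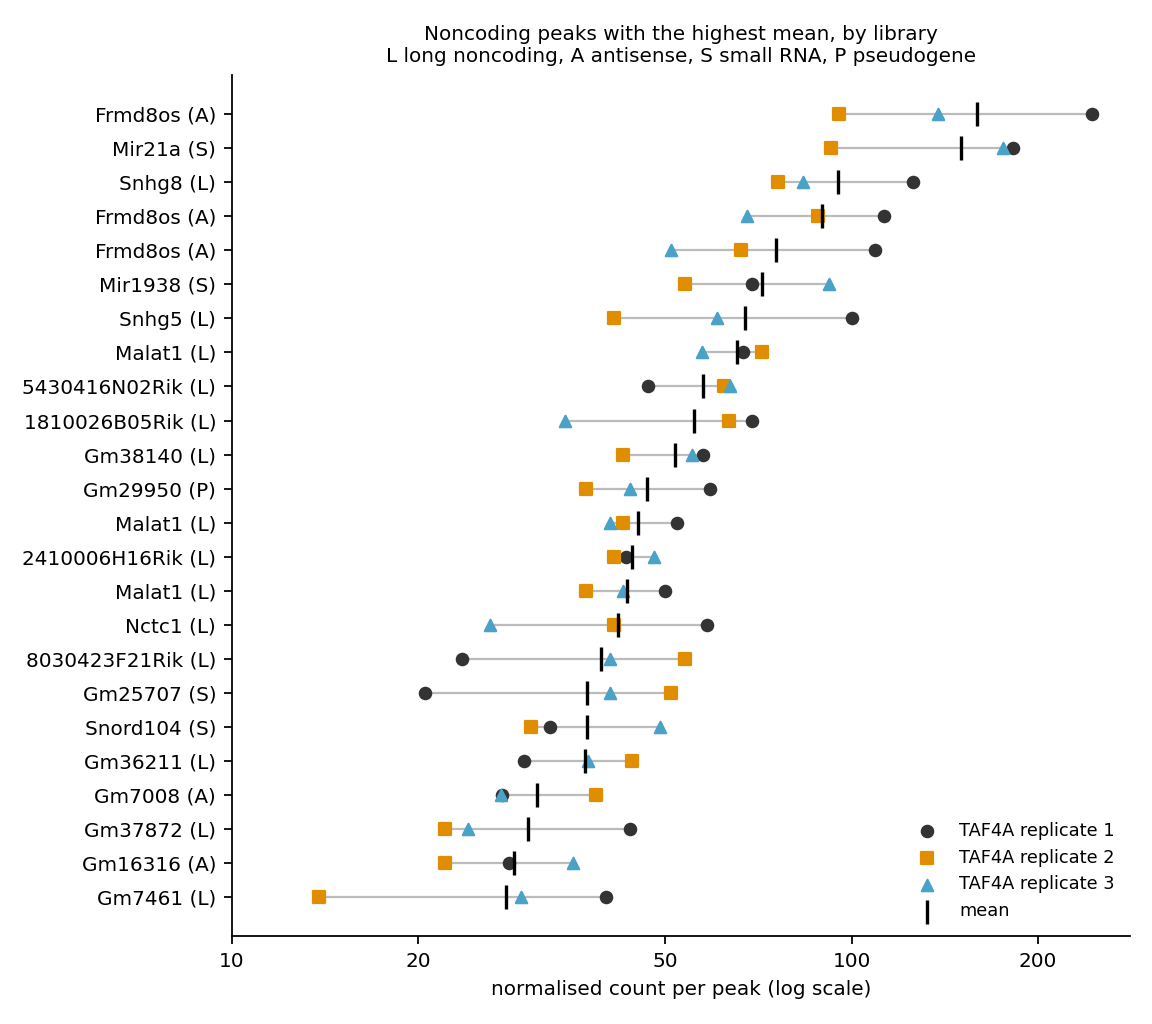
Normalised counts (log axis) of the noncoding peaks with the highest means in the 3 TAF4A libraries (points), with a black bar for the mean and a grey line for the range; letters give the group. The peak at the Frmd8os start (mean 159) and that of Mir21a (150.0) are highest, and replicate 2 is the lowest library at both.

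Noncoding peaks were slightly narrower than protein-coding peaks, with a median of 151 bases (quartiles 112 and 217, range 100 to 581) against 169 bases. Peaks near a start had medians of 160 bases at noncoding and 173 bases at protein-coding genes, and peaks farther off had 144.5 bases in both sets. Width and count went together. Over the 77 noncoding peaks, log2 width and log2 mean count had a correlation of 0.916, and over the protein-coding peaks one of 0.898, a description in which both values of a peak come from the same reads.

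Counts at noncoding peaks had a lower median than those at protein-coding peaks. The mean normalised count had a median of 16.7 over noncoding peaks, 21.6 over protein-coding peaks and 20.2 over all peaks. By group it was 17.1 for long noncoding, 28.6 for antisense, 15.6 for small RNA and 17.8 for pseudogene peaks, with 4 of the 9 antisense peaks being those of Frmd8os. The means ran from 6.51 to 95.1 over the long noncoding, from 8.88 to 159 over the antisense, from 5.30 to 150.0 over the small RNA and from 10.6 to 46.8 over the pseudogene peaks, so the groups overlapped. On the log2 scale (counts plus 1), the noncoding median minus the protein-coding median was -0.27, -0.29 and -0.07 in replicates 1, 2 and 3, with a mean of -0.21 ± 0.12 (SD, n = 3, two-sided exact sign-flip permutation test p = 0.25). All 3 libraries gave a lower noncoding median, and with 3 libraries no smaller p can be reached.

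The difference was smaller when position and width were taken into account. Among peaks within 1000 bases of the listed start it was -0.20, -0.17 and 0.12, with a mean of -0.08 ± 0.18 (SD, n = 3, two-sided exact sign-flip permutation test p = 0.5). Among peaks farther away it had a mean of -0.05 ± 0.08 (SD, n = 3). Neither mean was larger than its spread between libraries. With counts divided by the width of the peak, the difference over all peaks was -0.09, -0.16 and -0.03, a mean of -0.10 ± 0.07 (SD, n = 3, two-sided exact sign-flip permutation test p = 0.25). Near a start it had the opposite sign, with a mean of 0.054 ± 0.15 (SD, n = 3), and far from a start it was -0.01 ± 0.10 (SD, n = 3).

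**Figure D4:**
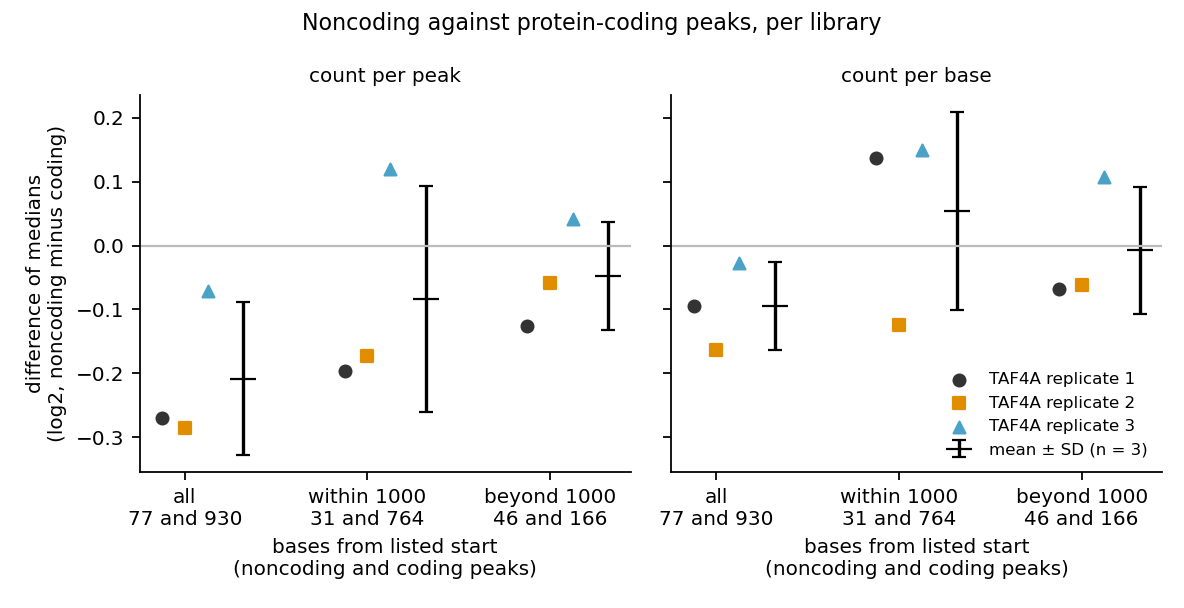
Difference of the median log2 counts, noncoding minus protein-coding, in each TAF4A library (points) with the mean and SD (bars), for all peaks, peaks within 1000 bases of the listed start and peaks farther away, per peak and per base. For all peaks the 3 libraries lie below 0 on both scales (means of -0.21 and -0.10), and for the other sets they lie on both sides of 0.

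A chi-square test asked for each peak whether its 3 counts differed by more than counting noise once the library sizes were taken into account, with Benjamini-Hochberg adjustment over all 1131 peaks. It called 19 of 77 noncoding peaks (24.7%), beside 17.9% of all peaks and 17.4% of protein-coding peaks at an adjusted p under 0.05. A peak found in only 1 library could enter the unified set on these same reads. The calls are therefore partly fixed by how the peaks were chosen. Of the 19, replicate 1 was highest at 13, replicate 2 at 4 and replicate 3 at 2. Replicate 1 was also highest at 109 of the 203 called peaks in all. The smallest adjusted p-values were 1.38e-13 at the Frmd8os start, 8.45e-05 at Mir21a and 1.11e-04 at the Frmd8os peak 2841 bases inside the gene, and in each of these replicate 1 had the highest normalised count. Others with replicate 1 highest included Snhg5 (adjusted p = 1.35e-04), Rnu3b1 (0.00264), Snhg8 (0.00529), the stronger Nctc1 peak (0.0127) and 1810026B05Rik (0.0178). Replicate 2 was highest at Snhg17 (adjusted p = 9.81e-04) and Gm25707 (0.00779), and also at Gm28981 and 8030423F21Rik, and replicate 3 at Gm44738 and Gm21769. The other calls, all with replicate 1 highest, were the Frmd8os peak at 1147 bases, Gm7461, Gm37872, Mir21c and Gm23802. The number of calls depended on the libraries, at noncoding and other peaks alike. Without replicate 1, 3 noncoding peaks (3.90%) and 2.74% of all peaks were called. Without replicate 3 it was 9 (11.7%) and 7.60%, and without replicate 2 it was 15 (19.5%) and 16.2%. The test is approximate at low counts, and with at least 10 counts in each library it called 14 of 47 noncoding peaks (29.8%) and 18.9% of all such peaks. Between pairs of libraries, log2 counts over the 77 peaks had correlations of 0.754, 0.747 and 0.671, which share the widths of the peaks.

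The motifs at noncoding peaks varied with the distance to a start. NF-Y, SP1 and TATA motifs are common in promoters, and CAGCTG and TGANTCA (bound by AP-1 factors) are common in enhancers of muscle cells. The last 2 were searched after the peaks had been looked at. Within whole peaks on either strand, CCAATCA was found in 11 of the 77 noncoding peaks (14.3%), in 19.4% of protein-coding peaks, in 17.5% of all peaks, and in 7.82% of 32851 RefSeq promoters of 300 bases. The 11 peaks include those of Snhg8, Snhg5, Terc, 1810026B05Rik and 5430416N02Rik. Near a start it was in 7 of 31 noncoding (22.6%) and 21.3% of protein-coding peaks, and far from one in 4 of 46 (8.70%) and 10.2%. The short form CCAAT, which holds every CCAATCA, was in 27.3% of noncoding, 49.4% of protein-coding and 45.2% of all peaks, beside 37.4% of RefSeq promoters, and it was in 35.5% of noncoding peaks near a start and 21.7% of those far from one.

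GGGCGGG was found in 16 noncoding peaks (20.8%), against 40.8% of protein-coding peaks, 35.9% of all peaks and 25.6% of RefSeq promoters. It was in 11 of the 31 noncoding peaks near a start (35.5%) and in 5 of the 46 far from one (10.9%), where protein-coding peaks had 44.0 and 25.9%. TATAAA was in 5 noncoding peaks (6.49%), 11.7% of protein-coding peaks, 10.8% of all peaks and 13.6% of RefSeq promoters. CAGCTG went the other way. It was in 3 of 31 noncoding peaks near a start (9.68%) and 11 of 46 far from one (23.9%), beside 24.1% of the far protein-coding peaks, 23.0% of peaks with no gene, 12.9% of all peaks and 16.3% of RefSeq promoters. TGANTCA was in 2 of 31 near and 10 of 46 far noncoding peaks (21.7%), beside 12.7% of far protein-coding peaks, 26.2% of peaks with no gene, 8.93% of all peaks and 7.81% of RefSeq promoters. These shares are descriptions with no test, and a longer sequence has more room for a motif.

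In the central 100 bases, a window of equal length for every peak, all motifs searched but TATAAA kept their order between near and far noncoding peaks. GGGCGGG was in 6 of 31 near (19.4%) and 4 of 46 far from a start (8.70%), CCAATCA in 4 (12.9%) and 4 (8.70%), and CCAAT in 7 (22.6%) and 8 (17.4%). CAGCTG was in 1 near (3.23%) and 7 far (15.2%), and TGANTCA in 1 (3.23%) and 6 (13.0%). These counts are small. TATAAA was in 12.9% near and 2.17% far from a start over whole peaks, but in 0 and 2.17% of the central windows. Base composition moved in the same way. The median GC content was 57.4% for noncoding and 60.4% for protein-coding peaks, and CpG dinucleotides per 100 bases were 2.95 and 6.36. Noncoding peaks near a start had 5.61 CpG per 100 bases and those far from one 2.46, against 7.0 and 2.99 at protein-coding peaks, and the part of composition in the motif shares was not tested.

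**Figure D5:**
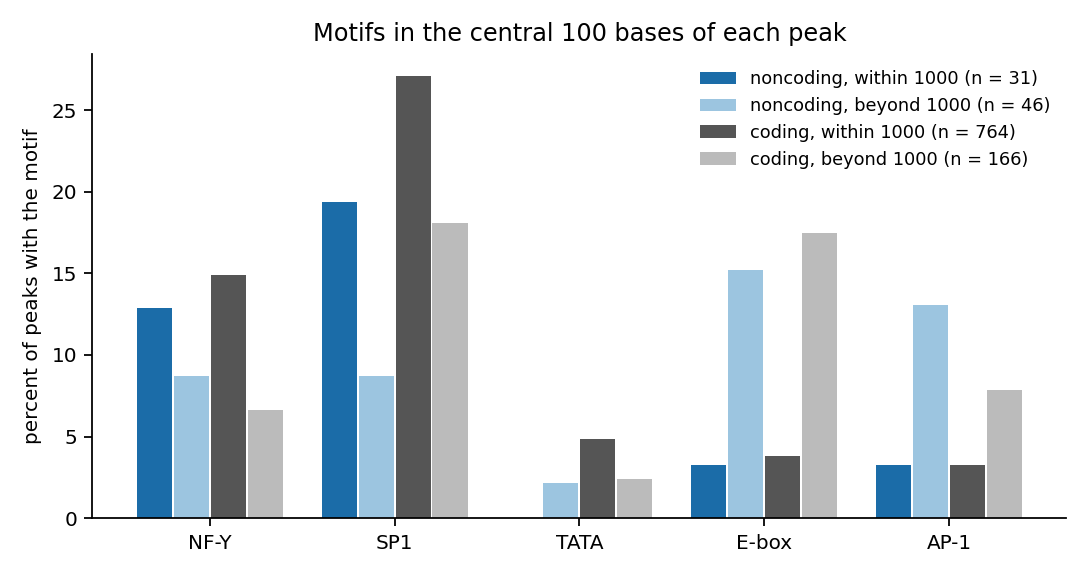
Percent of peaks that hold each motif in their central 100 bases (bars), for noncoding and protein-coding peaks within 1000 bases of the listed start and beyond. Among noncoding peaks the SP1 bar is higher near a start (19.4 against 8.70%). The E-box and AP-1 bars are higher far from one (15.2 and 13.0%, both against 3.23%, which is 1 of 31 peaks).

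The 77 noncoding peaks and the 122 peaks with no gene were alike in lying more than 10000 bases from any protein-coding gene start. Any M21 transcript started within 1000 bases of 43 noncoding peaks (55.8%) and of 34 peaks with no gene (27.9%). The median of the mean normalised count was 16.7 and 14.0, and the median width 151 and 131 bases.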

How the data were processed

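The deposited table holds, per unified peak, its coordinates, the listed gene and the counts of reads that the authors obtained with featureCounts in each TAF4A library. Per the labels and the study's methods, reads were trimmed with Trimmomatic 0.39, aligned to mm10 with STAR 2.7.9a and freed of duplicates with Picard (2.21.7 in the submitters' processing notes), and multi-mapping reads were removed. Peaks were called with MACS against IgG and unified, and peaks were annotated with a gene whose start lay within 10000 bases. The deposited counts are whole numbers with unequal totals and were treated as raw counts. Because a peak called in 1 library enters the set, it can have few counts in the others.

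Libraries were scaled by TMM (edgeR 4.0.16, R 4.3.3). A chi-square test per peak compared its 3 counts with the scaled library sizes, with Benjamini-Hochberg adjustment over 1131 peaks at 0.05. Noncoding and protein-coding medians were compared within each library (log2, pseudocount 1) and tested over libraries with a two-sided exact sign-flip permutation test, whose smallest p is 0.25. The tests were tested on simulated data. Starts came from GENCODE M21 and RefSeq on GRCm38, with deposited starts read as counted from 0 and coordinates given from 1. All 77 listed IDs were found in M21, 75 with the same coordinates, and took their symbols from it. Python 3.11.15, numpy 2.4.6, pandas 2.3.3, scipy 1.17.1, pysam 0.24.0, DESeq2 1.42.0 (size factors, as an alternative) and matplotlib 3.10.9 were used.

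Genes were named if among the 3 with the highest mean in their group, if they hold or are a small RNA, if on a fixed list of 58 well-studied noncoding genes, if among the 3 smallest p-values, if they had more than 1 peak, or if among the 3 farthest from the listed start. The 12 peaks at transcript starts of protein-coding genes, the further called peaks, Trp53cor1, 1810026B05Rik, 5430416N02Rik, Gm26626, Gm14224, Gm11471 and 2610005L07Rik were named after their values were seen. The members and lists were chosen with earlier results of these data known. The labels number the TAF4A libraries 1 to 3 and the study describes them as biological replicates, without saying in the sources used here whether each came from its own mouse. The IgG libraries were not analysed here, and some items are not reported here.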

Additional observations from a re-analysis of the deposited data

How the results depend on the processing

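No paired analysis was possible because the counts analysed come from 1 group of libraries, and replicate numbers shared with IgG could not enter a fit. The number of noncoding peaks called as differing between libraries, 19 of 77, was 15 (19.5%, all peaks 16.1%) when libraries were scaled by their total counts only, and 11 (14.3%) at an adjusted p under 0.01, beside 9.73% of all peaks. Leaving out 1 library gave 3 (without replicate 1) to 15 (without replicate 2), beside 2.74 to 16.2% of all peaks. With DESeq2 size factors it was 16 (20.8%, all peaks 16.8%), and without the Malat1 to Neat1 region 16 of 68 (23.5%, all peaks 17.8%).

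The noncoding minus protein-coding difference in log2 count was below 0 in all 11 alternatives run, from -0.31 with 1 peak per gene to -0.05 over 1000 bases from the start. Leaving out 1 library gave -0.28 to -0.17. Per base, it turned to 0.054 among peaks within 1000 bases of the listed start, and was below 0 in the other 8 alternatives, from -0.15 to -0.01, with -0.13 to -0.06 on leaving out 1 library. None of these could pass a threshold with 3 libraries.

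The share of noncoding peaks near a start was 55.8% when any M21 transcript start counted, 44.2% with RefSeq starts and 32.5% within 500 bases. The share near a protein-coding start was 0% when only gene starts counted, which the listing of genes fixes. The median width was 196 bases among the 47 peaks that reached 10 counts in each library, against 206 bases at protein-coding peaks filtered alike. Low counts limit single members, since 27 of the 77 had under 10 counts in replicate 2.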

Other observations

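Many noncoding promoters with a TAF4A peak are listed under a coding neighbour and are not among the 77. Of the 58 well-studied noncoding genes on the fixed list, 45 were found in M21, and 17 of these had a peak centre within 1000 bases of a start. The table lists 6 of them as such (Malat1, Terc, Snhg5, Snhg6, Snhg8 and Snhg17), and for 9 the peak is listed for a protein-coding gene. The snoRNA host Gas5 had 139, 56 and 85 counts in replicates 1, 2 and 3 under Zbtb37, with a normalised mean of 90.5 ± 14.1 (SD, n = 3). Snhg1 had 128, 90 and 107 under Slc3a2 (111.1 ± 13.7), Snhg9 had 156, 64 and 116 under Rps2 (109.3 ± 18.2), and Zfas1 had 94, 40 and 43 under Znfx1 (57.1 ± 13.3). The miRNA host Mir22hg had 340, 151 and 167 under Tlcd2 (213.6 ± 41.9), which is above every one of the 77 listed noncoding peaks. Snhg3 (under Rcc1), Snhg10 (under Glrx5), Snhg12 (under Rab42) and Ftx (under Zcchc13) had means between 11.4 and 29.8. Whether such a peak belongs to the noncoding or the coding gene cannot be told apart from these positions.

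Over the whole annotation, a peak lay within 1000 bases of a start for 16 of 72 noncoding snoRNA hosts (22.2%, Wilson interval 14.2 to 33.1), of which 5 are listed and 11 have the peak under a coding gene. For protein-coding snoRNA hosts it was 48 of 279 (17.2%, interval 13.2 to 22.1), for all protein-coding genes 941 of 21951 (4.29%), for long noncoding and antisense genes 177 of 13373 (1.32%), and for pseudogenes 10 of 13523 (0.0739%). Noncoding miRNA hosts had 6 of 115 (5.22%, interval 2.41 to 10.9) and protein-coding ones 69 of 808 (8.54%). Noncoding is by the M21 biotype here. The 16 therefore include Cct6a, a chaperonin gene, and the 6 include Zswim6, which the deposited listing gives as protein-coding. These counts were made after the peaks had been looked at and carry no test.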
